A study of Mus musculus with 3 samples.

Results

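The microRNAs (miRNAs) of exosomes from hypoxic mesenchymal stem cells were set against those of exosomes from normoxic cells, as 1 array labelled with hypoxia (H-Exo) against 1 array labelled with normoxia (N-Exo). These are 2 of the 3 arrays of the series, chosen by their treatment label. Both held probes for 1881 mouse miRNAs, of which 582 were detected on both arrays and could be compared. The changes are described by seed family, by genomic cluster and by hairpin arm, and under 7 ways of scaling the arrays to each other.

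The cells were mesenchymal stem cells (MSCs), adherent stromal cells grown from the femur and tibia marrow of male wild type C57BL/6 mice 4 to 6 weeks old and used at passages 3 to 6 in medium with fetal bovine serum. N-Exo came from cells kept for 24 h in normoxia and H-Exo from cells kept for 24 h in hypoxia, and neither received any other agent. A further array, H+G-Exo, came from hypoxic cells given GW4869, an inhibitor of the enzyme neutral sphingomyelinase, and was not itself compared. It entered the choice of the probes used for scaling, the choice of each miRNA's brightest probe and the search for the signal floor. It also entered the reference of 1 of the scalings, quantile normalization. Exosomes were pelleted by ultracentrifugation from the cleared medium of 10 dishes. The sources used here do not give the oxygen level, nor say whether the serum had been cleared of its own vesicles. The design text speaks of 3 samples of each kind, while each kind is 1 array here, and whether RNA was pooled is not stated. The differences below are therefore between 2 arrays, without replicates, and carry no p-value. In a bulk exosome preparation, fewer vesicles and less of a miRNA per vesicle cannot be told apart.

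A mature miRNA guides a silencing complex to messenger RNAs, and the bases just behind its 5′ end, the seed, do most of the pairing. miRNAs with the same seed form a family with overlapping targets, although their genes can lie on different chromosomes. miRNA genes often stand in clusters that are transcribed as 1 precursor, and each hairpin of that precursor can release a 5p and a 3p arm, usually in unequal amounts. Exosomes carry a share of a cell's miRNAs into the medium, and miR-210 is the textbook miRNA that cells make more of in hypoxia.

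The mature sequences that carry the findings are given first, 5′ to 3′, from RefSeq (GRCm38.p6), with the seed (bases 2 to 8) in capitals. The first set is the let-7 family, whose 9 measured members moved closely together.
let-7a-5p: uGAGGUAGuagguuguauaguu
let-7b-5p: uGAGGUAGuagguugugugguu
let-7c-5p: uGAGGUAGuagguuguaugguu
let-7d-5p: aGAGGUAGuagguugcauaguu
let-7e-5p: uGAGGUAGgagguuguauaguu
let-7f-5p: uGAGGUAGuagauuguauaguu
let-7g-5p: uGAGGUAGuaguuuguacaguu
let-7i-5p: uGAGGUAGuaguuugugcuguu
miR-98-5p: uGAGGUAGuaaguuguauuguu

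The second set is the miR-15/16 family, whose members share a seed but are made from 4 loci, with miR-503-5p, a cluster partner whose seed differs in its last base.
miR-15a-5p: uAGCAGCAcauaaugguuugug
miR-15b-5p: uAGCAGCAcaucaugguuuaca
miR-16-5p: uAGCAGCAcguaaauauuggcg
miR-195a-5p: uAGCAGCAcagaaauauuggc
miR-497a-5p: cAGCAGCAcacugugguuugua
miR-322-5p: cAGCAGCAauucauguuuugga
miR-503-5p: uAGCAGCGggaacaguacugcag

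The third set holds smaller families in which close relatives changed by unequal amounts: miR-30, miR-99/100 and miR-27.
miR-30a-5p: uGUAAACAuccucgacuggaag
miR-30c-5p: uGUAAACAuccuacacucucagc
miR-30e-5p: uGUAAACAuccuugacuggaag
miR-99a-5p: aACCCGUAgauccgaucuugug
miR-100-5p: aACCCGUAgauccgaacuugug
miR-99b-5p: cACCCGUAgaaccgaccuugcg
miR-27a-3p: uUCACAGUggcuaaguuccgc
miR-27b-3p: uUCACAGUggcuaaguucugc

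The last set holds miR-5110, the only miRNA that rose under all 7 scalings, the pair of higher miRNAs that share a seed, miR-762 and miR-7648-3p, and both arms of miR-193b, whose changes were the farthest apart of all hairpins.
miR-5110: gGAGGAGGuagagggugguggaauu
miR-762: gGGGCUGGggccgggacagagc
miR-7648-3p: aGGGCUGGgcccgggacgcgg
miR-193b-5p: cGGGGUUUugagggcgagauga
miR-193b-3p: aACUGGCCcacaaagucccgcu

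Signals below are scaled: the mean over the replicate spots of a miRNA's brightest probe, divided by the 75th percentile, within that array, of those probes that were detected on each of the 3 arrays of the series. That percentile was 417 in N-Exo and 235 in H-Exo, so scaling raised H-Exo against N-Exo by 0.83 on the log2 scale. The error after ± is the SD among spots on 1 array, which is technical error only. A miRNA was said to rise or fall where both arrays detected it and the difference was 2-fold or more and also exceeded 2 standard errors over its spots. By that rule 25 miRNAs rose, 4.30% of the 582 measured, and 62 fell, 10.7% of them. The median log2 difference of all 582 was 0.34, so a fall at the threshold lay further from the bulk of the miRNAs than a rise at the threshold did. The differences ranged from -2.33 to 2.68.

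**Figure D1:**
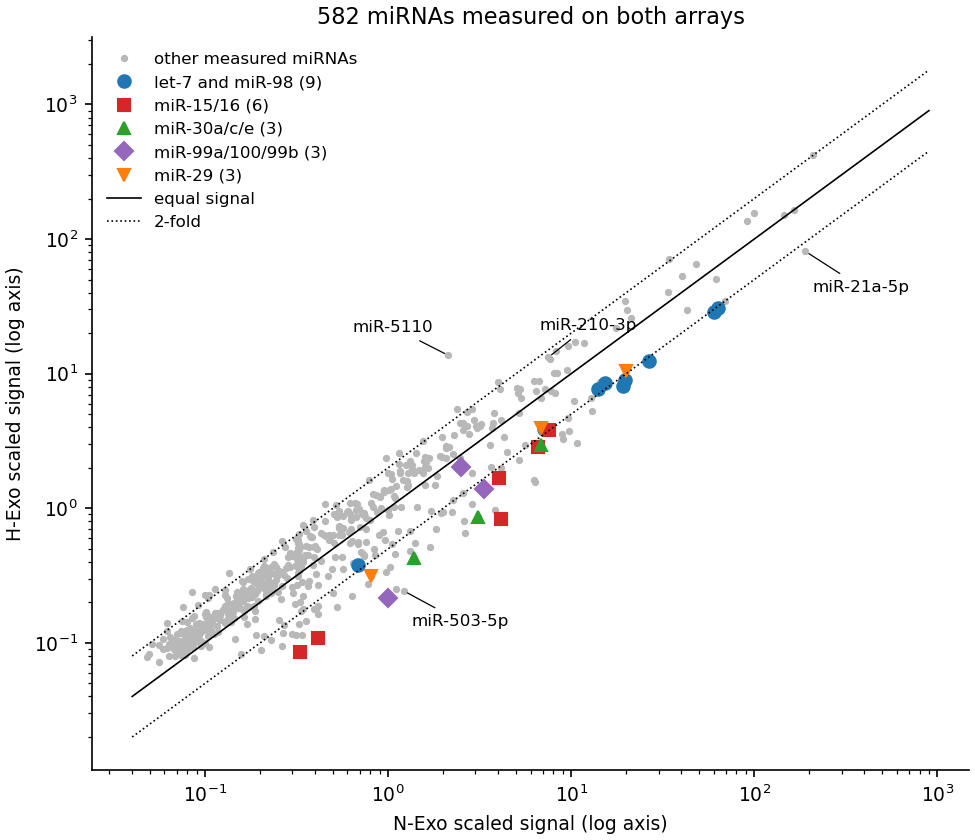
Scaled signal of each of the 582 miRNAs measured on both arrays, N-Exo on the x axis and H-Exo on the y axis, both on log axes, with the solid line at equal signal and the dotted lines at 2-fold. The 9 members of the let-7 family, the 6 of miR-15/16, the 3 of miR-30 with a matched sequence and the 3 of miR-29 lie below the line of equal signal, while miR-5110 stands alone above the cloud.

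How many miRNAs counted as higher depended on the scaling, because most scalings move all differences by 1 constant. Against the percentile of detected probes, the shift was -0.10 with the median of detected probes, -0.22 with the percentile over all probes, -0.35 with the labelling spike-ins, -0.83 with no scaling and -0.85 with the hybridization spike-ins. The number of higher miRNAs was 15, 6, 2, 1 and 1 in that order, and the number of lower ones 75, 83, 99, 134 and 136. Quantile normalization, which is not a constant shift, gave 19 higher and 66 lower. Of the 62 falls, 58 were at least 2-fold lower under all 7 scalings, the 4 exceptions being miR-27a-3p, let-7f-5p, miR-23a-3p and miR-103-3p, which quantile normalization brought under 2-fold. Of the 25 rises, only miR-5110 was higher under all 7. Orders within a family, a cluster or a hairpin do not depend on a constant shift, but the counts of falls and rises do. With no scaling, the seed families with most members lower went from 4 to 8 and such clusters from 4 to 11.

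**Figure D2:**
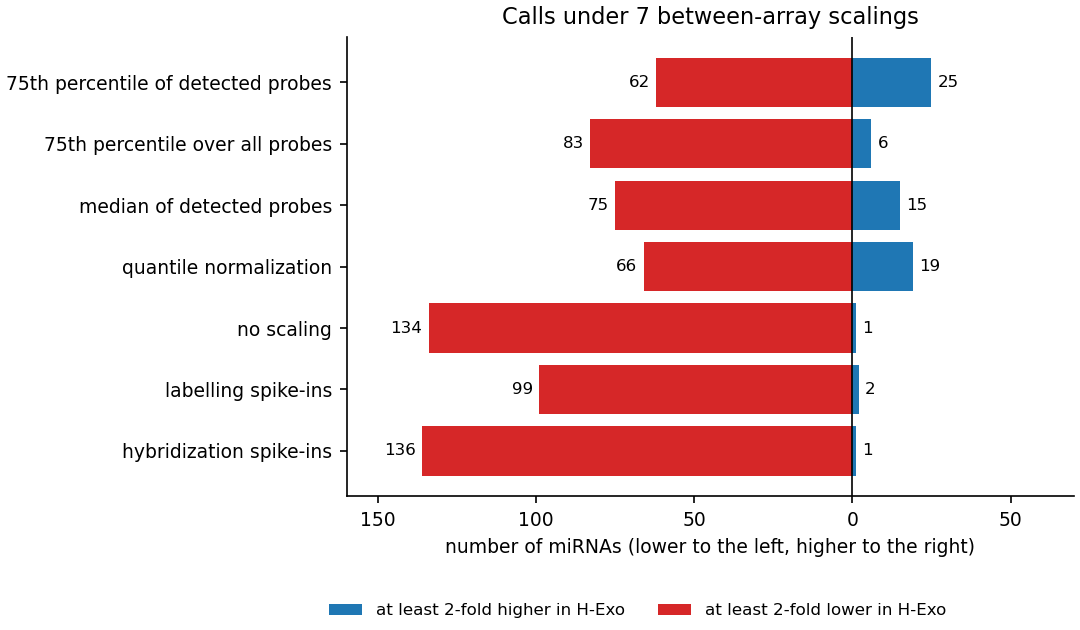
Number of miRNAs at least 2-fold lower (left of zero) and at least 2-fold higher (right of zero) in H-Exo than in N-Exo under 7 between-array scalings. The lower count runs from 62 to 136 and the higher count from 25 down to 1.

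Mature sequences were matched for 500 of the 582 measured miRNAs, which held 428 different seeds. Families were formed from these alone, so a miRNA with no matched sequence is not counted in the family it belongs to. Of these seeds, 12 had 3 or more measured members and 35 had 2. In 4 of the 12 larger families most members fell, and in 0 of them did most members rise. No family of 2 or more held both a miRNA that fell and one that rose. The 4 were let-7, miR-15/16, miR-30 and miR-99/100. Over all 582 measured miRNAs 10.7% fell. All members of the 4 families have numbers below 3000, a class in which 21.8% fell. In that class, 40 of 94 miRNAs with a probe GC content under 50% fell, with a median of -0.89. Of its 59 miRNAs among the brightest of N-Exo, 26 fell, with a median of -0.95. The family counts were not separated from these shares.

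The let-7 family, regulators of developmental timing that repress growth genes such as Ras and Hmga2, was the largest. Of its 11 members on the array 9 were measured, 5 fell and 0 rose, and the differences lay between -1.25 and -0.84 with a median of -1.04. let-7b-5p gave a scaled signal of 63.1 ± 2.31 in N-Exo and 30.7 ± 0.632 in H-Exo. let-7c-5p gave 59.97 ± 2.61 and 28.7 ± 1.36, let-7a-5p 26.5 ± 0.678 and 12.5 ± 0.171. let-7i-5p had the lowest difference, with 19.3 ± 1.09 against 8.09 ± 0.255. The 4 members that missed the threshold, let-7d-5p, let-7e-5p, let-7g-5p and miR-98-5p, had log2 differences of -0.87, -0.84, -0.86 and -0.84, so the threshold divided a family whose values hardly differed. All 9 passed it with the percentile over all probes, with either spike-in or with no scaling, 5 with the median of detected probes and 4 with quantile normalization. The family's share of the summed signal of all measured miRNAs was 10.3% in N-Exo and 4.65% in H-Exo. Several let-7 probes lie within 1 mismatch of another member, so cross-hybridization between members was not separated here.

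The miR-15/16 family, repressors of cell cycle and survival genes such as cyclins and Bcl2, had 6 measured members, of which 5 fell. Their values were not alike. miR-322-5p gave 4.15 ± 0.154 in N-Exo and 0.835 ± 0.0402 in H-Exo, a 4.97-fold fall. miR-497a-5p gave 0.330 ± 0.0154 and 0.0861 ± 0.00877, and miR-195a-5p 0.413 ± 0.0179 and 0.108 ± 0.00974, both falls of 3.83-fold. miR-15a-5p and miR-16-5p fell 2.37-fold and 2.32-fold, from 4.01 ± 0.118 to 1.69 ± 0.0566 and from 6.63 ± 0.235 to 2.86 ± 0.145. miR-15b-5p, at 7.56 ± 0.370 and 3.84 ± 0.166, differed 1.97-fold and missed the threshold. miR-322-5p and miR-15b-5p, with the same seed, thus stood 1.33 apart on the log2 scale, while miR-195a-5p and miR-16-5p, identical at 19 of 21 compared bases, stood 0.72 apart. In H-Exo the dim members were miR-497a-5p, at 20.2 units before scaling, and miR-195a-5p, at 25.4, and with normexp background correction their log2 differences were -0.55 and -0.68, under the threshold. miR-322-5p, at 196 units, had a difference of -2.07 with that correction. With the software's total intensity per miRNA in place of the spots, the log2 differences of miR-497a-5p and miR-195a-5p turned to 3.95 and 1.38.

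Of the 5 measured 5p arms of the miR-30 family 4 fell, among them the 3 with a matched sequence. miR-30 members are abundant in stromal and muscle cells and repress genes of the epithelial to mesenchymal transition. miR-30c-5p had scaled signals of 3.08 ± 0.0290 in N-Exo and 0.864 ± 0.0697 in H-Exo, miR-30e-5p of 1.39 ± 0.0502 and 0.429 ± 0.0296, and miR-30a-5p of 6.82 ± 0.256 and 2.97 ± 0.111. The log2 differences were -1.84, -1.70 and -1.20. Of the family's other measured members, for which no sequence was matched, miR-30b-5p fell 2.83-fold and miR-30d-5p, at -0.49, did not pass.

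The miR-99/100 family, repressors of the mTOR pathway, was the most uneven of the large families. miR-99a-5p fell 4.59-fold, from 0.995 ± 0.0331 to 0.217 ± 0.0161. miR-100-5p fell 2.39-fold, from 3.33 ± 0.168 to 1.39 ± 0.0849. miR-99b-5p, at 2.51 ± 0.173 and 2.04 ± 0.155, differed 1.23-fold and did not pass. miR-99a-5p and miR-100-5p are identical at 21 of 22 bases, so each probe can take up some of the other's signal, yet their log2 differences lay 0.94 apart.

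Of the 35 seeds with 2 measured members, 5 had both members lower: miR-146a/b, miR-26a/b, miR-27a/b, miR-196a/b and miR-103/107. miR-146a-5p, a brake on Toll-like receptor signalling, fell 4.39-fold and miR-146b-5p 2.81-fold. miR-26a-5p fell 3.93-fold, from 3.82 ± 0.121 to 0.972 ± 0.0840, and miR-26b-5p 2.82-fold. miR-196a-5p and miR-196b-5p, which lie in the Hox clusters and target Hox genes, fell 2.73-fold and 2.62-fold. miR-103-3p and miR-107-3p fell 2.06-fold and 2.13-fold.

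In other large families few members moved past the rule. Of the miR-29 family, which represses collagens and other matrix genes, miR-29c-3p fell 2.57-fold, and miR-29a-3p and miR-29b-3p had log2 differences of -0.95 and -0.79. In the family of miR-130a-3p, miR-301a-3p and miR-721, miR-130a-3p fell 2.45-fold, from 13.02 ± 1.14 to 5.31 ± 0.207, miR-301a-3p had a log2 difference of -0.98 and miR-721 of 0.23. The miR-17 family, growth-promoting miRNAs of the miR-17~92 cluster and its relatives, had 0 of 5 past the rule and a median of -0.29. miR-106b-5p had the lowest log2 difference in it, -0.92, and miR-17-5p the highest, 0.24. miR-125b-5p, with one of the higher probe signals, had 69.0 ± 1.79 and 34.9 ± 3.20, a 1.98-fold difference that missed the threshold by less than its error. miR-125a-5p, with the same seed, had a log2 difference of -0.33.

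The medians of 4 of the 12 larger families lay above that of all miRNAs, and these families had seeds rich in G. The family of miR-7012-5p, miR-7057-5p, miR-8113 and miR-8119 had a median of 0.69 with 1 member past the rule, and that of miR-3547-5p, miR-6368, miR-6404 and miR-6405 had 0.52 with 1. The family of miR-149-3p, miR-1943-5p and miR-7016-5p had 0.77 with none, and that of miR-6922-5p, miR-7008-5p and miR-705 had 0.51 with none. These medians were below 0 in at least 1 scaling: their lowest values over the 7 scalings were -0.16, -0.33, -0.08 and -0.34. By contrast, the medians of the let-7, miR-15/16, miR-30 and miR-99/100 families were at -0.96 or lower under all 7 scalings. The one seed with 2 measured members that both rose was that of miR-762 and miR-7648-3p, at 2.03-fold and 2.17-fold, and neither was higher with no scaling. The other detected probes of miR-762 had log2 differences of 0.75, 0.89 and 0.79, under 2-fold. The brightest probe of miR-7648-3p covers 10 bases and lies within 1 mismatch of 3 other miRNAs. Its second probe gave 1.05.

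**Figure D3:**
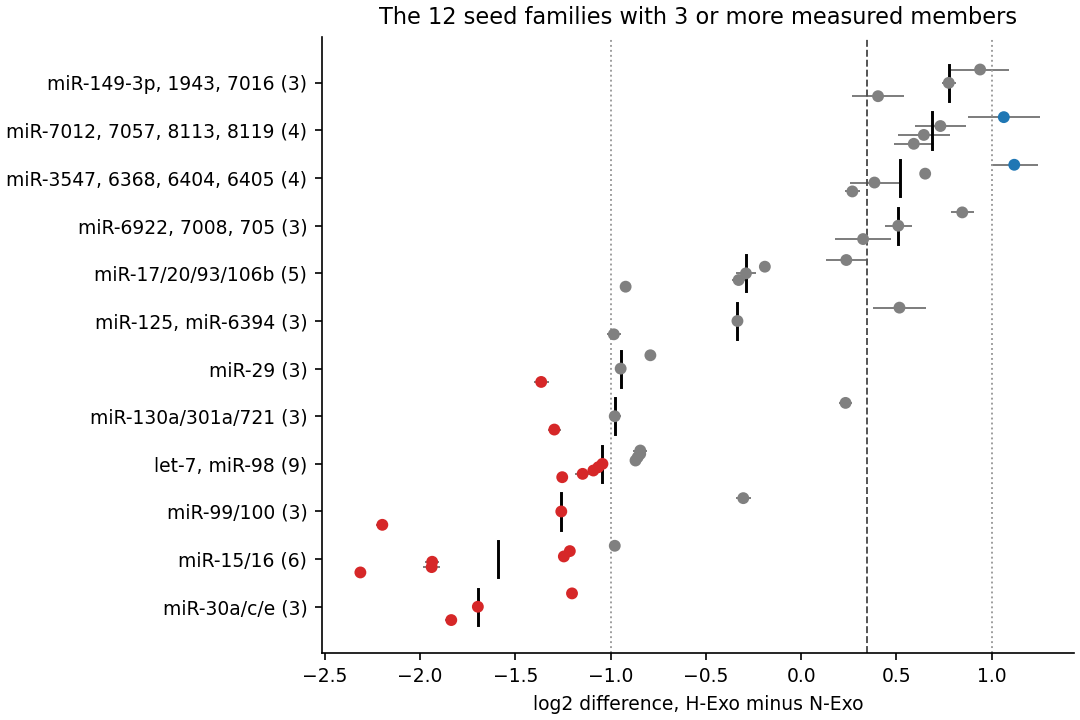
Log2 difference of each member of the 12 seed families with 3 or more measured members, H-Exo minus N-Exo, with the standard error over spots as bars and the family median as a black tick; red points fell, blue points rose and grey points did not pass the rule. The dashed line marks the median of all 582 miRNAs, 0.34, and the dotted lines 2-fold; the let-7 points lie in a narrow band while the miR-15/16 and miR-99/100 points spread widely.

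Positions on the mouse genome (mm9, from the array files) were listed for 212 of the 582 measured miRNAs. The files name the chromosome and bases matched by each probe, but no host gene, exon or intron. Measured miRNAs within 10000 bases of each other on 1 strand were joined into clusters, which gave 15 clusters with 3 or more members and 21 with 2. In 4 of the 15 most members fell, in 0 did most members rise, and in 7 none passed the rule. Over all 582 measured miRNAs 10.7% fell, and 21.8% of those with numbers below 3000, to which all members of these 4 clusters belong. A mature miRNA made from several loci gives 1 value, so it counts in each of its clusters.

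The lowest cluster was that of miR-322, miR-503 and miR-351 on the minus strand of chrX:50406498-50407475. miR-503-5p gave 1.22 ± 0.0671 in N-Exo and 0.243 ± 0.0270 in H-Exo, a 5.01-fold fall, next to the 4.97-fold fall of miR-322-5p, although with the software's total intensity its log2 difference was 0.10. These were the lowest differences of all 582 miRNAs, and they come from 1 cluster that is known in muscle and mesenchymal differentiation. miR-351-3p, the passenger arm from the same cluster, had a log2 difference of 0.37, and miR-351-5p, detected in N-Exo only, was at least 1.86-fold lower. The pair of miR-497a-5p and miR-195a-5p on chr11:70048234-70048584 fell to the same extent, -1.94 and -1.94. miR-15a-5p and miR-16-5p on chr14:62250736-62250899 fell by 1.24 and 1.21, and the related pair of miR-15b-5p and miR-16-5p on chr3:68813700-68813861 had -0.98 and -1.21. Within these 4 loci the guide strands measured on both arrays lay at most 0.24 apart. The clusters' medians ran from -2.31 on chrX through -1.94 and -1.23 to -1.10 on chr3. miR-16-5p is 1 value that counts on both chr14 and chr3. The 2 dim miRNAs of chr11 did not pass the rule with normexp background correction. With the software's total intensity they had 3.95 and 1.38, so the place of chr11 in this order depends on the processing.

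The paired clusters of miR-23, miR-27 and miR-24, which are linked to blood vessel growth and to muscle, gave a like picture. On the plus strand of chr13:63401842-63402580, miR-23b-3p fell from 6.36 ± 0.185 to 1.58 ± 0.0613 and miR-27b-3p from 2.62 ± 0.0802 to 0.650 ± 0.0407, 4.03-fold each. On chr8:86732434-86732795, miR-23a-3p fell 2.07-fold, from 9.64 ± 0.345 to 4.65 ± 0.237, and miR-27a-3p 2.28-fold. miR-24-3p is made from both clusters, and its log2 difference, -0.95, lay nearer to those of the chr8 cluster. The probes of miR-27a-3p and miR-27b-3p each lie within 1 mismatch of the other miRNA, so some signal can be shared, and their log2 differences lay 0.82 apart.

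The 3 clusters that join let-7 to miR-99 or miR-100 also differed. On chr16:77599189-77599938, miR-99a-5p fell by 2.20, while its neighbour let-7c-5p, which is also made on chr15, fell by 1.06. On chr9:41339524-41344836, miR-100-5p fell by 1.26 and let-7a-5p by 1.09. On chr17:17967165-17967351, none of miR-99b-5p, miR-99b-3p and let-7e-5p passed the rule, with log2 differences of -0.30, -0.31 and -0.84. The let-7 members of the 3 clusters lay within 0.25 of each other, and the miR-99/100 members within 1.89.

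**Figure D4:**
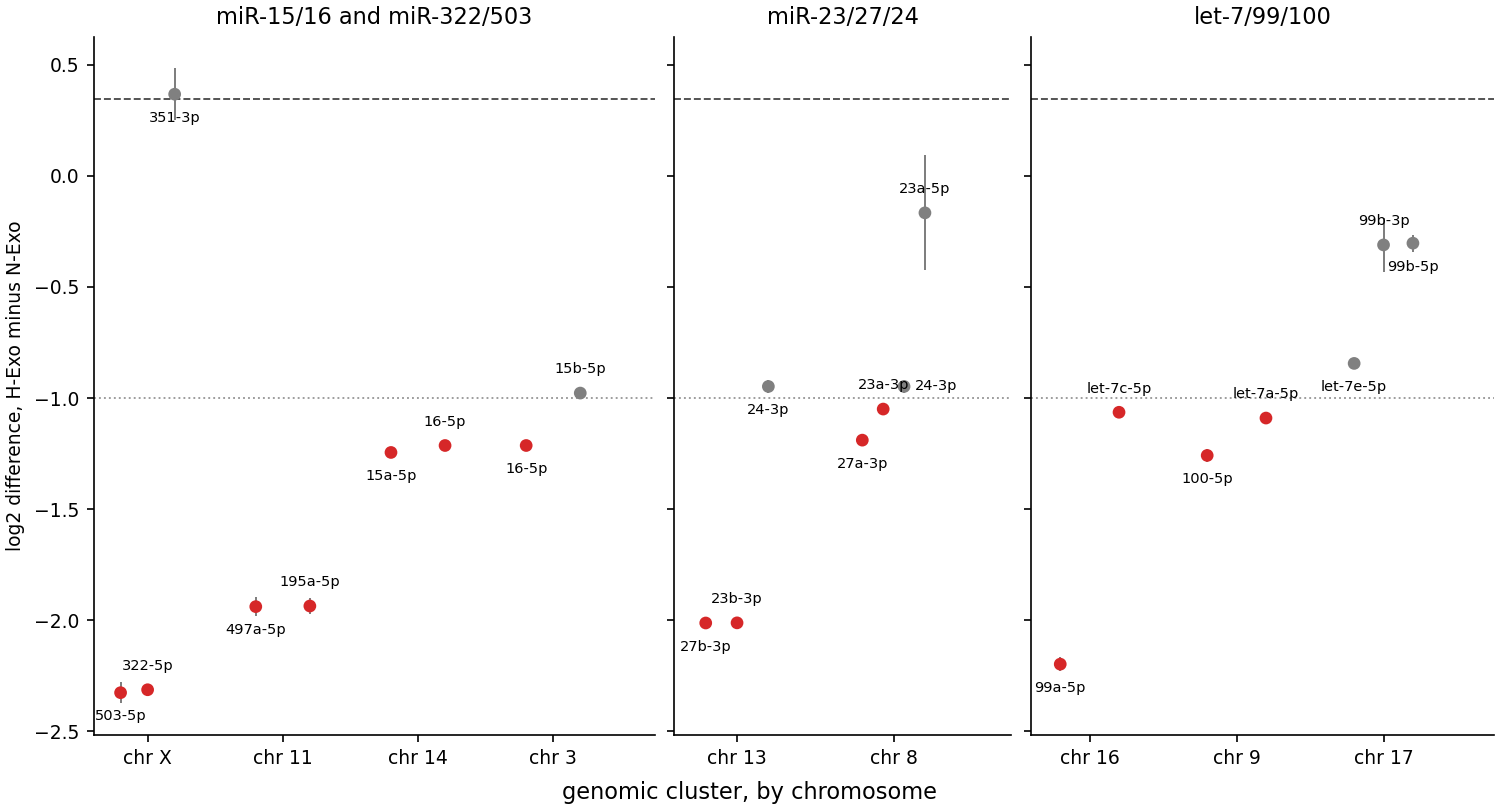
Log2 difference, H-Exo minus N-Exo, of the measured miRNAs of related genomic clusters, grouped by chromosome, with the standard error over spots as bars; red points fell and grey points did not pass the rule. The dashed line is the median of all miRNAs, 0.34, and the dotted line a 2-fold fall; in the left panel the 5p miRNAs of each locus lie at most 0.24 apart, while the loci sit at different heights.

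Other clusters with falls held members that did not pass. On the minus strand of chr4:120442160-120445248, miR-30c-5p and miR-30e-5p fell and miR-30c-1-3p had a log2 difference of 0.22. On the minus strand of chr13:48631400-48633581, let-7a-5p and let-7f-5p fell, let-7d-5p had -0.87 and let-7f-1-3p 0.32. On chr15:85537049-85537830, let-7b-5p and let-7c-5p fell and let-7b-3p had 0.28. The cluster of miR-466, miR-467 and miR-669 members on chr2:10388918-10431007, a repeat array within a gene known as Sfmbt2, had 11 measured members: miR-466b-3p, miR-467a-3p and miR-467b-5p fell, 2.55-fold, 2.87-fold and 2.72-fold, while the cluster's highest log2 difference was 0.65. On chr2:32174007-32174065, miR-199b-5p fell 3.82-fold and miR-199a-3p 3.53-fold, the latter from 10.7 ± 0.576 to 3.04 ± 0.163. miR-199a-5p, from another locus of the family, fell 3.25-fold. By RefSeq positions (GRCm38), used only as an alternative, miR-199a-3p, miR-199a-5p and miR-214-3p form a cluster on chr1:162217844-162223459. All 3 of them fell.

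Clusters in which none passed the rule included 3 that are well known. The miR-17~92 cluster on chr14:115442916-115443718 had 8 measured miRNAs with a median of -0.20, and its highest members were miR-19a-5p at 0.61 and miR-17-5p at 0.24. The imprinted Dlk1-Dio3 cluster on chr12:110951041-110986124 had 8 measured of 57 on the array, with a median of 0.46. The miR-290 cluster of embryonic stem cells on chr7:3218647-3220801 had 4 measured, with differences of 0.21 to 0.59. The miR-106b~25 cluster on chr5:138606605-138606996 came closest to the threshold among clusters of 3 or more, with a median of -0.77. With no scaling, most members of the miR-17~92 and miR-106b~25 clusters were at least 2-fold lower, 5 of 8 and 3 of 3.

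Among the clusters of 3 or more, the only one with rises was that of miR-193b and miR-365 on chr16:13449634-13454009. Among the pairs, miR-200b-5p rose 2.10-fold on the minus strand of chr4:155429027-155429819, next to miR-200a-5p at 0.32. A second probe of miR-200b-5p had a log2 difference of only 0.34. miR-193b-5p and miR-365-1-5p rose 2.16-fold and 2.07-fold, while the other arms, miR-193b-3p and miR-365-3p, had log2 differences of -0.96 and -0.45. Both rises were near the detection limit, with scaled signals of 0.0623 ± 0.0172 and 0.104 ± 0.0181 in N-Exo. Second probes of miR-193b-5p and miR-365-1-5p had log2 differences of 0.89 and 0.72, under 2-fold.

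Pairs of miRNAs that share a seed or a locus had closer values at the median than other pairs, given here as a description. Among the measured miRNAs with both a sequence and a position, the median gap between log2 differences was 0.24 over 20 pairs of 1 seed and 1 cluster, and 0.28 over 70 pairs of 1 seed from different clusters. It was 0.47 over 89 pairs of different seeds in 1 cluster, and 0.87 over 15557 pairs that shared neither. Some of the 89 are arms that can come from 1 hairpin but whose names carry a locus number. Examples are miR-30c-1-3p with miR-30c-5p, 2.05 apart, and let-7f-1-3p with let-7f-5p, 1.47 apart. The 15557 pairs were not matched for brightness or probe GC content. Members of 1 family also share bases beyond the seed and can share probe signal. The 70 pairs came from 56 miRNAs, so 1 miRNA can count in several pairs, and their gaps ran from 0.00036 to 1.89. Many of these 70 join members of the let-7 family, which all lay within 0.41 of each other. The median without let-7 was not computed.

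The 2 arms of a hairpin come from 1 precursor in equal number, and their later loss or loading sets which one accumulates. Of 723 hairpins with both arms on the array, 56 had both arms measured, 309 had 1 and 358 had none. In 9 of the 56, 16.1%, the change of the arms differed by at least 2-fold and by more than 2 standard errors over spots. In 5 of these the 5p arm had the higher difference and in 4 the 3p arm. Since both arms move by the same constant, this count was also 9 under each scaling except quantile normalization, which gave 10. With normexp background correction it was 5. Signals under 0.0653 were raised to that floor, and in several of the 9 an arm lay near it in N-Exo. These were miR-193b-5p at 0.0623, miR-19a-5p at 0.0663, let-7b-3p at 0.0831 and miR-467b-3p at 0.0834. Both arms of miR-5132 were also dim, at 0.0854 and 0.0842.

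The widest gap was that of miR-193b, in favour of its 5p arm. miR-193b-3p, the major arm, gave 1.32 ± 0.0661 in N-Exo and 0.677 ± 0.0444 in H-Exo, against 0.0623 ± 0.0172 and 0.141 ± 0.0134 for miR-193b-5p, so the arms' log2 differences lay 2.07 apart. miR-674 had a gap of 1.55, with 0.82 for its 5p and -0.72 for its 3p arm. miR-19a, of the miR-17~92 cluster, had 1.36, with miR-19a-3p at -0.74 and miR-19a-5p at 0.61. miR-5132 had 1.08: its 5p arm rose 2.81-fold, from 0.0854 ± 0.0195 to 0.240 ± 0.0473, and its 3p arm had 0.41. miR-652, at 1.04, had a 5p arm with 17.6 ± 2.08 and 21.8 ± 1.84, and a 3p arm with 0.961 ± 0.0355 and 0.579 ± 0.0452. With the software's total intensity, the gap of miR-674 was -0.00139 and that of miR-5132 was -2.04.

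In the other direction, miR-467b had the widest gap, -2.02. Its 5p arm fell 2.72-fold, from 0.314 ± 0.0208 to 0.115 ± 0.0127, while its 3p arm gave 0.0834 ± 0.00741 and 0.124 ± 0.00723. miR-28a had -1.56, with miR-28a-5p lower by 2.22-fold and miR-28a-3p at 0.41. let-7b had -1.32: let-7b-5p had -1.04 and let-7b-3p 0.28. miR-125a had -1.19, with miR-125a-5p at 4.29 ± 0.194 and 3.40 ± 0.179 and miR-125a-3p at 1.00 ± 0.111 and 1.82 ± 0.115.

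Both arms fell in 2 hairpins. miR-140-5p and miR-140-3p, miRNAs of cartilage, fell 2.71-fold and 2.55-fold, and miR-199a-5p and miR-199a-3p, typical of fibroblasts, 3.25-fold and 3.53-fold. In 0 of the 56 did 1 arm fall and the other rise by the rule. The nearest hairpins outside it were miR-362, with a gap of 0.89, and miR-23a, with 0.88. Of the 30 hairpins with numbers below 3000, 8 had arms at least 2-fold apart, against 1 of 26 with higher numbers.

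**Figure D5:**
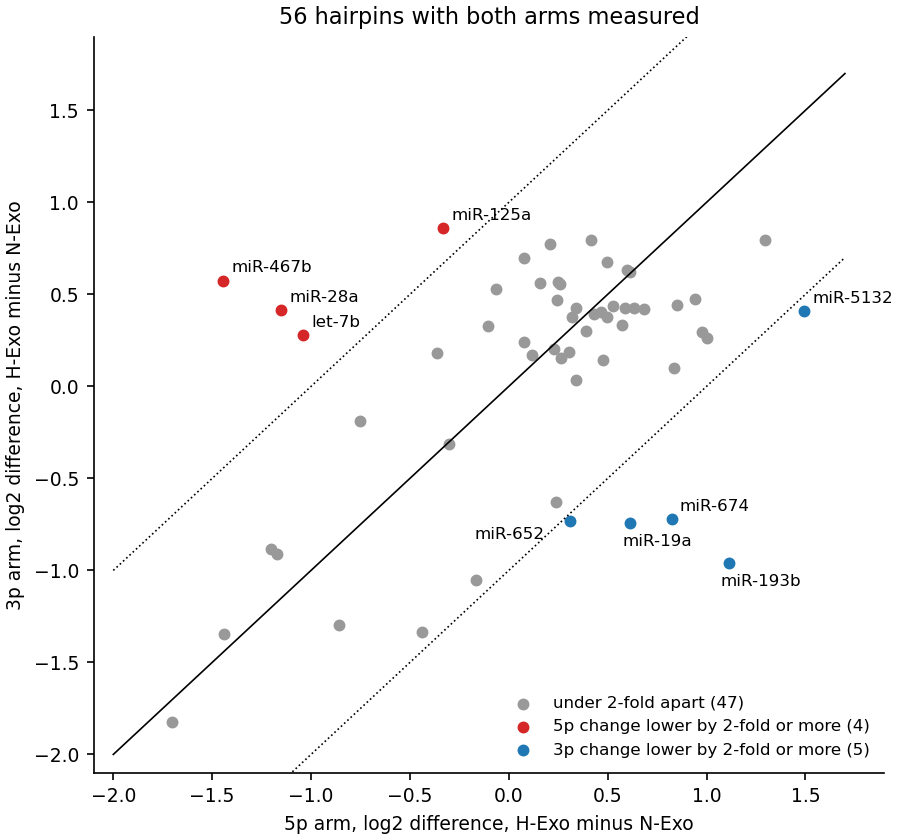
Log2 difference, H-Exo minus N-Exo, of the 5p arm (x axis) and the 3p arm (y axis) of the 56 hairpins with both arms measured, with the solid line at equal change and the dotted lines at a 2-fold gap. Red points, 4 hairpins, had the lower change in the 5p arm and blue points, 5 hairpins, in the 3p arm; most grey points lie in a cloud at positive values near the median of all miRNAs.

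The registry number of a miRNA, which follows the order of entry, divided the data. Of the 285 measured miRNAs with numbers below 3000, 62 fell and 9 rose, with a median of 0.10. Of the 297 with numbers of 3000 or above, 0 fell and 16 rose, with a median of 0.44. All 62 falls thus belonged to the older miRNAs, although 1 to 11 of the younger ones were at least 2-fold lower under the other scalings. Among the older ones the values were lower in brighter miRNAs and in those with a lower probe GC content. Of the 59 that were among the 97 brightest miRNAs of N-Exo, 26 fell and the median was -0.95, while of the 33 among the 97 dimmest, 0 fell and the median was 0.28. A dim miRNA had less room to fall and stay detected on both arrays. Of the older miRNAs with probe GC under 50%, 40 of 94 fell, with a median of -0.89. From 50% to 60% it was 21 of 95, and at 60% or above 1 of 96, with a median of 0.38. The younger miRNAs had medians of 0.37 to 0.50 across brightness and of 0.41 to 0.47 across GC content. The part of probe GC content in the falls was not tested.

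Within the older group, 37 of 123 5p arms and 23 of 118 3p arms fell, with medians of -0.32 and 0.11. Of the miRNAs that fell, 53 had a mature sequence, with a median GC content of 45.5% against 57.1% for all 500, and 54.7% of them began with U against 40.2%. The 23 that rose and had a sequence had a median GC content of 65.0%, and 17.4% began with U. The motif GGAG, searched on the mature strand because it has been described in exosome-enriched miRNAs, occurred in 3.77% of the 53, in 29.2% of the 500 and in 14.2% of all 1679 mature sequences listed. It was carried by 16.4% of the sequenced older miRNAs and 40.8% of the younger ones, so its share follows the number classes as well. Among the older miRNAs, those with GGAG had a median of 0.40 and those without it -0.23. Older miRNAs with a probe GC content of 60% or above had a median of 0.38, and those under 50% of -0.89. The motif was not separated from GC content here. GGCU occurred in 13.2% of the miRNAs that fell and 15.2% of all.

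Among single miRNAs, miR-21a-5p, a survival-promoting miRNA abundant in MSCs, fell 2.35-fold, from 190.4 ± 15.4 to 81.0 ± 4.11. miR-143-3p, a miRNA of smooth muscle and stroma, fell 4.58-fold. miR-145a-5p, its cluster partner, was detected in N-Exo only and was at least 4.01-fold lower. miR-22-3p, miR-214-3p and miR-10a-5p fell 2.50-fold, 2.59-fold and 2.37-fold. The other miRNAs detected in N-Exo only with the largest bounds were miR-148a-3p at 3.91-fold, miR-9-3p at 3.29-fold, miR-181a-5p at 3.03-fold and miR-467e-5p at 2.69-fold. In all, 103 miRNAs were detected in N-Exo only and 4 in H-Exo only, and 8 of the 103 had a bound of at least 2-fold. Of the 4, miR-760-5p and miR-666-5p were at least 2.06-fold and 2.02-fold higher, and miR-7006-5p and miR-451b at least 1.72-fold and 1.45-fold. Those bounds hold for the percentile scaling. N-Exo detected 685 miRNAs and H-Exo 586, with 18705 and 15622 spots well above background. The lowest detected scaled signal was 0.0451 in N-Exo and 0.0653 in H-Exo. At equal scaled signal a dim miRNA could thus be detected in N-Exo and missed in H-Exo. The part of this in the counts of 103 and 4 was not tested.

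miR-5110 stood apart among the rises, with 2.14 ± 0.0651 in N-Exo and 13.7 ± 0.258 in H-Exo, a 6.40-fold rise. Its raw signal was also higher, 891 against 3211. A second probe for it gave a log2 difference of 2.60, against 2.68 for the brighter one, and its differences over the 7 scalings lay between 1.83 and 2.92. The next largest rises were smaller and mostly dim: miR-5132-5p rose 2.81-fold, miR-466i-5p 2.45-fold, miR-6956-5p 2.44-fold and miR-6945-5p likewise 2.44-fold, miR-3082-5p 2.37-fold, miR-3154 2.29-fold, and miR-8109, miR-7654-3p and miR-1187 2.25-fold, 2.25-fold and 2.21-fold. miR-1224-5p, with the highest probe signal on both arrays, rose 2.02-fold, from 210.3 ± 7.74 to 424 ± 10.97. Its second probe, at 62.4 in N-Exo and 109.7 in H-Exo, had a log2 difference of 0.81, under 2-fold. Its brightest probe covers 11 bases and lies within 1 mismatch of miR-705 and miR-7052-5p.

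miR-210-3p gave 7.51 ± 0.339 and 13.2 ± 0.443, a 1.76-fold difference that did not pass the rule. It lay 0.47 above the median of all miRNAs, and at the 91.1 percentile of the measured differences. Without scaling, its log2 difference was -0.01, and it was above 0 in 5 of the 7 scalings. The highest of the 7 was 1.105, over 2-fold, with quantile normalization. With the deposited value table it was 0.92. miR-210-5p was detected on neither array.

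miRNAs known from mesenchymal cells and fibroblasts were well represented: 25 of 30 listed were measured, of which 15 fell and 0 rose, with a median of -1.25. Of 19 measured miRNAs from a list linked to hypoxia, 12 fell and 0 rose, with a median of -1.09. In a list for cardiac repair or protection 7 of 17 fell, and in one for angiogenesis 7 of 20, with 0 rises in either. Over all 582 the share lower was 10.7% and the median 0.34. All measured members of these lists have numbers below 3000, a class in which 21.8% fell, and 26 of 59 among the brightest. Nothing particular to the lists is read from these counts. These lists overlap, and miR-21a-5p and miR-24-3p count in more than one. Of 28 miRNAs that mark other cell types (blood, endothelium, epithelium, muscle, liver and neurons), 4 were measured, 4 were detected in N-Exo only and 20 on neither array. The 4 measured, miR-451a, miR-223-3p, miR-206-3p and miR-129-5p, summed to a scaled signal of 0.437 in N-Exo and 0.485 in H-Exo, and none passed the rule.

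Several probes read most miRNAs, which allowed a check within each array. Of the 87 called miRNAs, 64 had 2 or more probes detected on both arrays. The median gap between the probes' log2 differences was 0.09 among these and 0.10 over all 476 miRNAs with such probes. For 11 of the 64 a further probe differed by less than 2-fold. All 11 were rises, while 43 of the 64 were falls. The further probes thus kept the falls past 2-fold, but not these 11 rises. Of the 76 called miRNAs with a mature sequence, the brightest probe of 0 matched another listed miRNA exactly, and that of 22 came within 1 mismatch of one.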

How the data were processed

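Per the file headers, the authors' arrays were scanned in one colour (Cy3), and spots were read with Agilent's Feature Extraction software, version 10.7.1.1; the deposited values are intensity per spot, background-subtracted by the software and not scaled between arrays. Per the labels' protocols RNA was extracted with TRIzol; the kits named there make cRNA and cDNA, which is unusual for a miRNA array, so the labelling of the hybridized material is uncertain. The deposited value table was read as log2 values, with the normalization not stated in those sources, and served as an alternative only.

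Control spots and outlier spots (1568 in N-Exo, 1369 in H-Exo) were left out, and 0 spots were saturated. A probe was detected where over 50% of its spots were well above background. Signals were scaled as the report describes, with a floor of 0.0653 set ahead of the log2 step. That floor was the highest among the lowest detected signals of the 3 arrays, and came from H-Exo. The brightest probe was that with the highest mean scaled signal over the 3 arrays. The median standard error over spots was 0.07 on the log2 scale; the number of arrays limits the precision. The call rule was also run on simulated data. That run could not test the calls against variation between replicate arrays, because neither group had replicates. Nothing about the calls is concluded from it. Groups came from the treatment in the labels. Tools were Python 3.11.15, pandas 2.3.3, R 4.3.3 and limma 3.58.1 (normexp background correction, an alternative).

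Members and lists were chosen with earlier results of these data known. Named miRNAs were both arms of miR-210, the 10 largest rises and falls, the 5 largest bounds each way, members of the 8 seed families and 8 clusters with most calls (up to 4 of other families), the 6 widest arm gaps each way, up to 4 members of each list and the brightest miRNAs; others named were picked with their values in view. A bound is the detected signal over the higher of the other array's own signal and its lowest detected signal. Coordinates are mm9 probe matches of the array files, lower position first, and were not checked against a genome. Alternatives were 6 other scalings, normexp, other probe and spot summaries, detection rules, a 1.5-fold threshold, the software's total intensity per miRNA, the deposited table, and other family and cluster definitions.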

Additional observations from a re-analysis of the deposited data

How the results depend on the processing

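The count of higher miRNAs, 25, became 6 with the percentile over all probes, 15 with the median of detected probes, 1 with no scaling, 2 with the labelling spike-ins, 1 with the hybridization spike-ins, 3 with normexp, 15 where every spot had to be well above background and 137 at 1.5-fold. The count of lower miRNAs, 62, became 134 with no scaling, 99 and 136 with the 2 kinds of spike-in and 101 at 1.5-fold, and lay between 42 and 85 otherwise. The median difference of all miRNAs, 0.34, was 0.24 with the median, 0.13 with the percentile over all probes, 0.21 with quantile normalization, -0.49 with no scaling, -0.0015 and -0.50 with the spike-ins, 0.26 with normexp, 0.17 with the software's totals and 0.21 with the deposited table. Seed families with most members lower, 4, became 8 with no scaling or the hybridization spike-ins, and 9 when families of 2 were counted. Clusters with most members lower, 4, became 11 with no scaling or the hybridization spike-ins, 8 with the labelling spike-ins or at 1.5-fold, and 2 with detection on 1 array or with the deposited table; with RefSeq positions, chosen after seeing the data, it was 3 of 21. Hairpins with unequal arms, 9, became 5 with normexp, 14 with detection on 1 array, 18 with the software's totals and 16 with the deposited table.

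With the software's totals, the sign turned for miR-503-5p (0.10), miR-497a-5p (3.95), miR-195a-5p (1.38), miR-374c-5p (0.31), miR-193a-3p (1.38), miR-455-3p (0.45), miR-676-3p (3.46), miR-378b (0.43) and miR-331-3p (1.86), for the median of the cluster of miR-322-5p and miR-503-5p (0.10), and for the arm differences miR-5132 5p minus 3p (-2.04) and miR-674 5p minus 3p (-0.00139). The cause of these changes was not tested. Of the 62 falls, 24 did not pass with normexp, and 32 passed in all 15 settings, as did 1 rise, miR-5110. No paired analysis was possible because each group is 1 array and the labels give no replicate numbers. Signal over background limits the dim miRNAs: one that is dim in N-Exo could not be detected on both arrays and be called lower.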

Other observations

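miRNAs were also grouped by name and arm, whether or not their seeds match. The 3 5p arms named miR-34, which are induced by p53, were measured and none passed the rule: miR-34a-5p, miR-34b-5p and miR-34c-5p had log2 differences between -0.74 and -0.30. The 6 measured members of miR-3473 had a median of -0.58 and reached down to -0.96, although miRNAs with numbers of 3000 or above had a median of 0.44. Of the 5 measured 3p arms named miR-466, miR-466b-3p fell, while the median of the 5 was 0.66. The 3p arms of miR-30 differed from the 5p arms, of which 4 of 5 fell: miR-30a-3p, miR-30c-1-3p and miR-30c-2-3p had differences from -0.89 to 0.32, and none passed the rule.

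The software's total intensity and the spots behind it differed for a few dim miRNAs. For miR-497a-5p, the brightest probe averaged 138 units in N-Exo and 20.2 in H-Exo, while the total was 49.2 and 502.8. For miR-676-3p the probe gave 95.4 and 24.9, and the total 34.9 and 253.8. Among the 582 measured miRNAs, the total was over 2 times the sum of the probe means for 10 in N-Exo and 19 in H-Exo.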
